A study of Mus musculus with 92 samples.

Results

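The mitochondrial ribosomal protein genes are the nuclear genes for the protein subunits of the ribosome inside mitochondria. They were taken as every protein-coding row of the 4 deposited count tables whose symbol starts with Mrpl or Mrps and a digit. This gave 78 genes, 49 Mrpl and 29 Mrps, of 22046 protein-coding rows and 54532 rows in all. By their position in the ribosome, 51 belong to the large subunit and 26 to the small subunit, because Mrps18a and Mrps30 sit in the large one. Of these, 30 large and 16 small subunit proteins have a counterpart in bacterial ribosomes, and 21 and 10 occur in mitochondria only. Mrps36 carries the symbol but is a component of the 2-oxoglutarate dehydrogenase complex of the citric acid cycle. The genes lie on 17 chromosomes. Mrpl53 had 0 reads in all 92 libraries, and 88% of its exon bases overlap other genes on the same strand. The other 77 passed the filter on low counts in every comparison.

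RNA was measured by poly(A) RNA-seq in mouse intestine and in cultures from it, with or without induced deletion of Eif4g2. This gene encodes a translation initiation factor also known as DAP5. In the first tissue set, Eif4g2 flox/flox (5 villus and 4 crypt libraries) and Eif4g2 flox/+ mice (5 and 5) carried CreER, the tamoxifen-dependent recombinase, at Rosa26, a locus active in most cell types, and were sampled on day 9. In the second set CreER was driven by Vil1, which restricts it to the epithelium, and flox/flox (6 villus, 3 crypt) and flox/+ mice (4 and 4) were sampled at month 3. All these mice received tamoxifen, so the flox/+ controls can lose 1 allele. Crypts and villi came largely from the same animals. All cultures carried CreER at Rosa26 and were kept in ENR, a medium with EGF, Noggin and R-spondin. A first set of small intestinal organoids held 3 flox/flox lines with DMSO or 0.5 µM 4-hydroxytamoxifen (4-OHT), collected on day 6. A second set, all with 4-OHT, held 4 flox/flox, 4 flox/+ and 4 CreER-only lines whose Eif4g2 was wild-type. Fetal intestinal spheroids came from 6 flox/flox and 5 flox/+ lines, each with DMSO and with 4-OHT. Finally, 4 organoid lines received DMSO or 3, 5 or 10 µM A-485, an inhibitor of the acetyltransferases p300 and CBP, for 4 days. Line 1 of these is Eif4g2 wild-type and lines 2 to 4 are flox/flox, all with CreER and without 4-OHT, so that Eif4g2 is intact. Some spheroid lines share an animal or litter number with different letters, and the labels do not say how they are related.

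Mitochondrial ribosomes translate the few messages of the mitochondrial genome, all of which encode subunits of oxidative phosphorylation. Their RNAs come from the mitochondrial genome, whereas every protein is made in the cytosol from a nuclear gene and imported. Each ribosome needs its proteins in fixed proportions, and loss of single subunits causes inherited mitochondrial disease. In the intestine, dividing crypt cells build up the translation machinery, while the absorptive cells of the villus are rich in mitochondria.

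Promoters are shown first for genes on which the results below turn. RefSeq start sites (GRCm38.p6) were matched for 69 of the 78 genes, and the 250 bases before to 50 after each start were searched on both strands. A gene with several start sites has several windows, 75 for the 69 genes, and shares below are of genes with the motif in any window. The ETS core motif CCGGAAGT was in 12 of the 69 genes (17.4%), against 978 of 16497 protein-coding genes (5.93%). The YY1 motif AAGATGGCG was in 8 (11.6%, against 2.25%), and the NRF1 motif, the 10 bases in capitals in Mrpl9 below, in 3 (4.35%, against 1.52%). The SP1 motif GGGGCGGGG was in 18.8% of the genes and in 17.9% of all. TATAAA was in 7.25%, against 14.3%. CCAAT was in 39.1% of genes against 42.1% and CACGTG in 7.25% against 9.2%, but as shares of windows both turn round, with 40% against 37.9% and 9.33% against 8.05%. Motifs could overlap each other, and a match describes the letters only. The 60 bases before the start are printed 5′ to 3′ on the gene's strand, with the motif in capitals, for the members that rose most often after Eif4g2 loss (Mrpl3), were much higher in crypts (Mrps22, Mrps27), were lower in crypts (Mrpl27) or hold an NRF1 motif (Mrpl9). In Mrps27 the motif lies on the opposite strand.
Mrpl3, chr9:105053208-105053267, plus strand: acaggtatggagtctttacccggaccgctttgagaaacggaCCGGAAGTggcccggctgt
Mrps22, chr9:98601680-98601739, minus strand: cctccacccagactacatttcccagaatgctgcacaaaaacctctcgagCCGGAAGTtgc
Mrps27, chr13:99344726-99344785, plus strand: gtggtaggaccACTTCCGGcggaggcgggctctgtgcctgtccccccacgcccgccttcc
Mrpl27, chr11:94653731-94653790, plus strand: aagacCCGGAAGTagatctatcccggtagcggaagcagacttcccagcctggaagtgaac
Mrpl9, chr3:94443276-94443335, plus strand: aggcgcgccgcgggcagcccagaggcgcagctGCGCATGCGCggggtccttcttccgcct
The motif ended 11 bases before the RefSeq start in Mrpl3, 3 in Mrps22, 41 in Mrps27, 47 in Mrpl27 and 18 in Mrpl9. The gene bounds used elsewhere here begin earlier for Mrpl3 (105053239), Mrpl27 (94653767) and Mrpl9 (94443318). Part of the printed bases of these genes therefore lies within those bounds, and in Mrpl3 the motif does too. The genes printed with the ETS letters were picked because they changed in different directions, so nothing about direction can be read from them. Directions were not compared between members with and without the motif.

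Libraries held 8652040 to 37611126 counts. Eif4g2 itself was lower in all 7 comparisons of deleted with control libraries, by 0.99 (Vil1 crypts) to 2.82 (spheroids) on the log2 scale. Its RNA was not absent from deleted libraries. In the first organoid set it was at 144 to 148 CPM with 4-OHT, against 705 to 794 with DMSO. Deleted here means flox/flox with tamoxifen or 4-OHT. Crypt markers separated the tissue fractions: their summed level was 14450 CPM (median) in Rosa26 control crypts against 76.8 in villi. CPM, the unit of levels here, are counts divided by the TMM-scaled library size, which sets the libraries of a set on a common scale, crypts together with villi. Fold changes, standard errors (SE) and adjusted p-values come from edgeR fits of the groups compared, and a gene is called at an adjusted p under 0.05. In deleted crypts the crypt markers were down to 2646 CPM with Rosa26-CreER and from 8052 to 1463 with Vil1-CreER, while immune markers were at 825 against 164 and 520 against 233. Every Rosa26 flox/+ library but only 1 of 4 crypt and 2 of 5 villus flox/flox libraries had over 50 counts of the Y-linked Ddx3y, so the presence of these counts moves with genotype there. In spheroids the crypt markers ranged from 191 to 11040 CPM, with 4519, 11040 and 5619 in the DMSO libraries of flox/+ lines 4 and 5 and flox/flox line 3. In bulk libraries, fewer cells of a type and less RNA per cell cannot be told apart. The part of these differences in the results below was not tested.

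The level summed over the 78 genes is given within each set, because sets were scaled separately and CPM cannot be ranked across them. In control crypts it was 2435 ± 88.7 CPM (SD, n = 5) with Rosa26-CreER and 1849 ± 196 (n = 4) with Vil1-CreER. In control villi it was 1712 ± 114 (n = 5) and 1519 ± 127 (n = 4). DMSO-treated organoids were at 3131 ± 64.9 CPM (n = 3) in the first set and 3224 ± 116 (n = 4) in the A-485 set, and DMSO-treated flox/flox spheroids at 3093 ± 520 (n = 6). The crypt and villus ranges did not overlap with Rosa26-CreER but did with Vil1-CreER, and the flox/flox spheroid lines spread from 2191 to 3782 CPM.

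**Figure D1:**
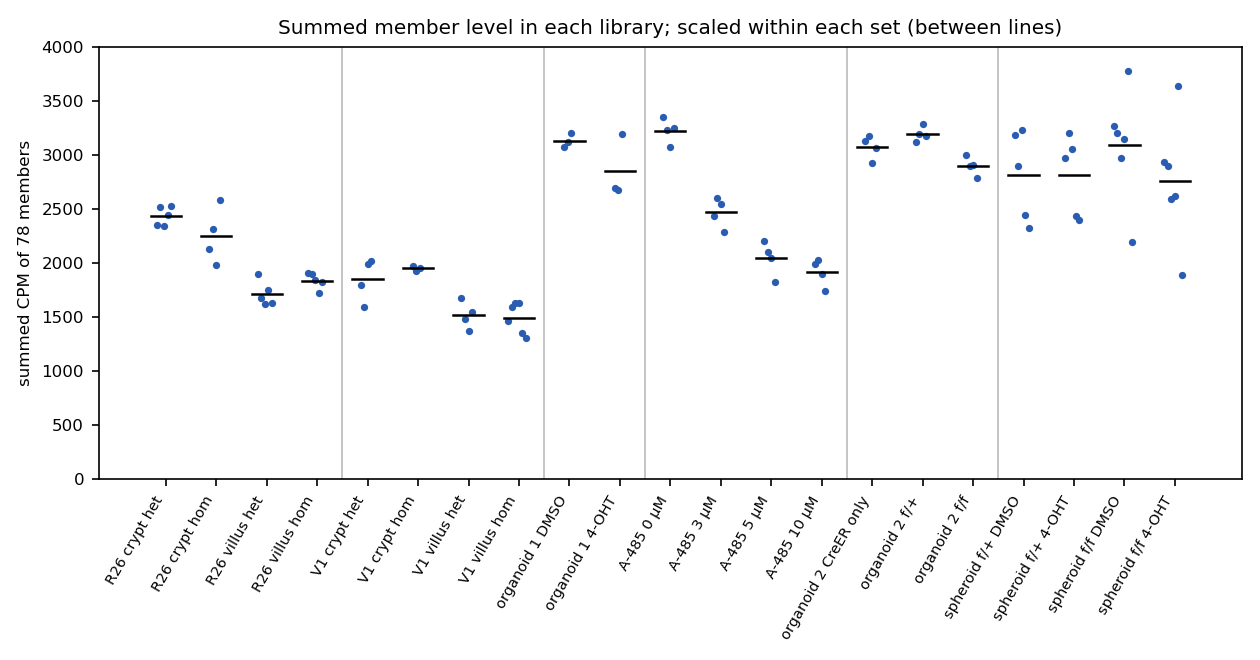
Summed CPM of the 78 mitochondrial ribosomal protein genes in each library (points) by group (lines: means), with vertical lines between sets that were scaled separately. Organoids fall from about 3224 to 1914 CPM with A-485, and no Eif4g2 deletion moves a group mean as far.

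Levels between genes are compared per kilobase of the principal transcript. In the Rosa26 tissue set Mrpl34, a large subunit protein with a bacterial counterpart, was highest at 88.2 CPM per kb, ahead of Mrpl52 (62.8) and the small subunit protein Mrps21 (60.6). The median member stood at 16.9. Mrps25 was lowest of the detected members in all 6 sets, at 2.52 CPM per kb in both tissue sets and 4.66 in the second organoid set. Exons of Nr2c2 on the opposite strand cover 69.8% of its exon bases, and the strand setting of the counts is not given, so its level may be affected. In cultures the top places went to Mrpl52, Mrpl30 and Mrpl42, with 111 CPM per kb for Mrpl52 in the first organoid set, 92.0 for Mrpl30 in the A-485 set and 95.7 for Mrpl42 in the second organoid set. The ranks of Mrpl30 and Mrpl42 rest on the transcript chosen, because with the gene length of the deposited tables they are between 29 and 43 of 78. With that length Mrps25 is between 73 and 76, and so is the lowest detected member in no set. Mrpl52 is then at rank 13 in the Rosa26 tissue set, 8 in the first organoid set and 10 in the A-485 set.

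Crypts were compared with villi in the flox/+ controls to see how these genes lie along the axis from dividing to absorptive cells. Most were higher in crypts with either driver: 56 of 77 rose and 10 fell with Rosa26-CreER, and 42 rose and 11 fell with Vil1-CreER. Among all tested genes, 77.1% and 67.9% were called, with 40.6% and 35.2% higher and 36.4% and 32.7% lower. The median log2 fold change of the members was 0.64 and 0.42, against 0.09 and 0.08 for all genes. Both drivers called 42 members higher and 9 lower, none in opposite directions, 17 in 1 driver only and 9 in neither. The same joint tally over all genes is not given here, so this agreement cannot be called particular to the members. Of large subunit genes, 37 of 50 and 27 of 50 were higher, and of small subunit genes 19 and 15 of 26.

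The small subunit protein Mrps27 (chr13:99344786-99415562, GRCm38), which holds the RNA-binding pentatricopeptide repeat, differed most. In Rosa26 control crypts it was at 29.6, 32.2, 30.0, 27.6 and 33.2 CPM, and in the villi of these mice at 8.45, 5.56, 7.34, 4.62 and 5.62. In Vil1 control crypts it was at 22.5, 19.5, 26.6 and 25.2 CPM, and in villi at 6.30, 5.91, 4.25 and 6.30. Every crypt library thus lay far above every villus library. Absence of overlap was a condition for naming the largest changes per comparison, so it is description only, here and below. The log2 fold change of Mrps27 was 2.26 (SE 0.16, adjusted p = 7.13e-08, edgeR) and 2.10 (SE 0.16, adjusted p = 1.24e-06). Mrps22, a mitochondria-specific small subunit protein in which mutations cause disease, was 1.86 and 1.72 higher on the log2 scale. Mrps28, the counterpart of bacterial S1, was higher by 1.98 and 1.25, and Mrpl19 of the large subunit by 1.74 and 1.64.

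Mrps36, the one member that is not a ribosomal subunit, differed most in the other direction. It was at 19.6, 16.6, 15.6, 18.3 and 15.5 CPM in Rosa26 control crypts and at 42.0, 36.6, 35.2, 40.7 and 38.9 in villi. With Vil1-CreER the crypt libraries read 11.3, 9.23, 12.9 and 15.8 CPM, and the villus libraries 45.1, 34.0, 31.9 and 39.3. No crypt library reached the lowest villus library in either set. The log2 fold changes were -1.18 (SE 0.08, adjusted p = 7.56e-08) and -1.56 (SE 0.17, adjusted p = 1.45e-05). The 3 catalytic components of the 2-oxoglutarate dehydrogenase complex, a list chosen after values were seen, were lower in crypts too, by 2.43 and 1.92 for Ogdh, 1.77 and 1.67 for Dlst, and 0.38 and 0.34 for Dld. The large subunit proteins Mrpl27, Mrpl43 and Mrpl14 were lower in crypts as well, with -0.77, -0.87 and -0.27 for Rosa26-CreER and -1.39, -1.03 and -1.05 for Vil1-CreER. Mrpl27 lies near the peptidyl transferase centre, and Mrpl14 at the face that meets the small subunit.

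**Figure D2:**
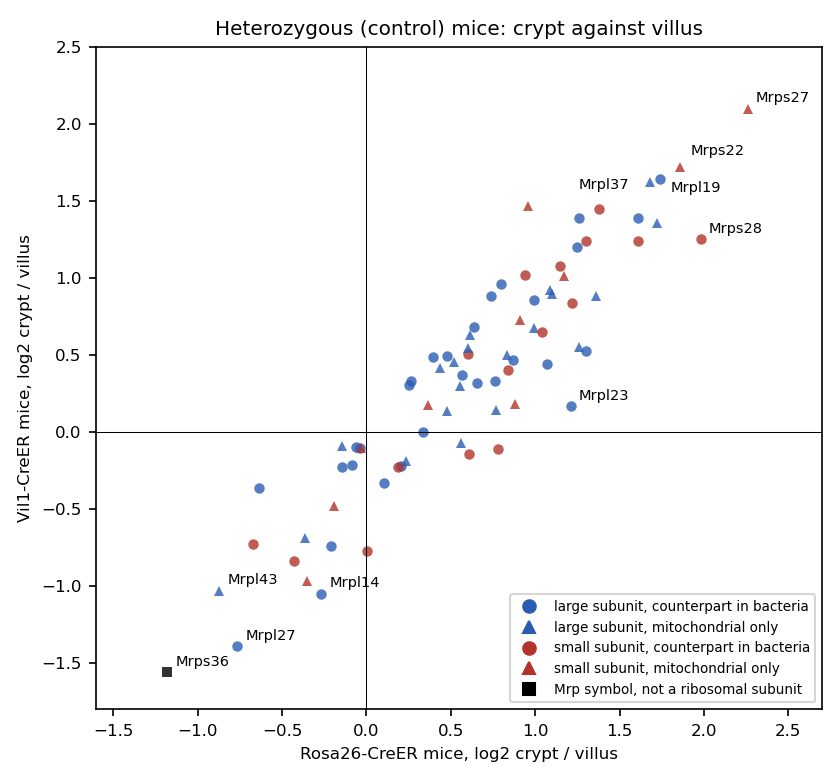
Log2 fold change of crypt over villus in flox/+ mice for 77 genes, Rosa26-CreER mice on the x axis against Vil1-CreER mice on the y axis, by subunit and presence in bacteria. Mrps27 stands at 2.26 and 2.10 and Mrps36 at -1.18 and -1.56, and points of all classes spread along the same diagonal.

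These directions depend on how libraries are scaled. Members took 0.346% of all counts in Rosa26 control crypts against 0.126% in villi, and 0.238% against 0.123% with Vil1-CreER. Scaled to library totals alone, 74 members were called higher and 0 lower with Rosa26-CreER, and 62 higher and 3 lower with Vil1-CreER. The share of all genes called on that scale is not given here. The median of all genes then moved to 1.06 and 0.69, and that of the members to 1.59 and 1.02. On that scale Mrpl27 and Mrpl43 reversed to 0.20 and 0.09 with Rosa26-CreER, and Mrps36 was at -0.23 without a call, while Mrpl27 and Mrps36 were still lower with Vil1-CreER, at -0.78 and -0.94.

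Other genes of the pathway, from fixed lists, were read the same way. Cytosolic ribosomal protein genes were higher in crypts for 76 of 76 and 75 of 76, with medians of 2.53 and 1.72, larger than those of the mitochondrial ribosome. Mitochondrial aminoacyl-tRNA synthetases, which charge the tRNAs, were higher for 16 and 15 of 17. Assembly and rRNA modification factors were higher for 19 and 15 of 24. Nuclear genes of oxidative phosphorylation went the other way, with 68 and 66 of 89 lower and 9 and 9 higher. Tfam, which packages mitochondrial DNA, was 1.61 and 1.36 higher on the log2 scale, and Ppargc1a, a coactivator of mitochondrial genes, 2.48 and 1.90 lower.

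A-485 was compared with DMSO at 3 doses in organoids, and the 3 comparisons share the DMSO libraries. The summed level of the members fell with each dose, from 3224 ± 116 CPM to 2469 ± 140, 2045 ± 161 and 1914 ± 130 (SD, n = 4 each). At 3 µM 18 members were lower and 1 higher, where 19.2% of all tested genes were called, 10.8% higher and 8.42% lower. At 5 µM 51 were lower and 1 higher (49.6% of all called, 24.4% higher and 25.1% lower), and at 10 µM 53 lower and 1 higher (62% of all called, 29.4% higher and 32.6% lower). The median log2 fold change was -0.40, -0.63 and -0.73, and that of all genes stayed within 0.05 of 0. The group means of 42 of the 77 fell at each step, and 17 were called lower at every dose, 28 at the upper doses and 8 at 10 µM only. These stepwise counts are not given for all genes, so the pattern cannot be called particular to the members.

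Mrps28, on chromosome 3 (8802146-8923918), fell most. It was at 20.5, 28.1, 17.7 and 22.4 CPM with DMSO, at 16.6, 12.6, 16.6 and 9.42 with 3 µM, at 10.7, 8.30, 9.10 and 1.45 with 5 µM, and at 2.29, 4.63, 4.31 and 5.87 with 10 µM. All libraries of the upper doses lay below all DMSO libraries. The log2 fold change was -0.68 (SE 0.39, adjusted p = 0.248) at 3 µM, -1.58 (SE 0.40, adjusted p = 0.00327) at 5 µM and -2.38 (SE 0.42, adjusted p = 7.53e-05) at 10 µM. Mrpl12, the stalk protein that meets the translation factors, stood at 58.7, 68.2, 70.2 and 56.6 CPM with DMSO and at 18.4, 19.3, 18.02 and 8.86 with 10 µM. Line 4 was low for Mrpl12 already at 3 µM, with 9.73 CPM against 36.02 to 42.3 in the others. Its log2 fold change was -0.98, -1.36 and -1.96, with adjusted p of 0.0439, 0.0023 and 6.72e-05.

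Mrps27 fell by 0.66, 1.37 and 1.91 and Mrps22 by 0.76, 1.38 and 1.48 on the log2 scale. Mrps31, a mitochondria-specific small subunit protein, went from 56.5, 63.4, 55.6 and 58.8 CPM with DMSO to 20.6, 22.0, 16.8 and 16.4 with 10 µM, with no overlap from 3 µM on. Its log2 fold changes were -0.66, -1.16 and -1.63. Of the 3 S18 paralogues, Mrps18b fell by 1.81 at 10 µM, Mrps18a by 0.59 and Mrps18c by 0.47. The difference between them was not tested. Exons of other genes cover 30.5% of the exon bases of Mrps18b on the opposite strand. They cover 23.2% of those of Mrps18c on the same strand, so the changes of both may be affected. The conserved small subunit proteins Mrps7 and Mrps12, the latter at the decoding centre, were not called at any dose, with -0.08 (adjusted p = 0.697) and -0.39 (adjusted p = 0.175) at 10 µM. Mrps36 was not called either, at -0.22 (adjusted p = 0.368).

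Mrps6 (chr16:92058270-92112227), a conserved small subunit protein, was the only member called higher. It read 18.9, 14.9, 15.4 and 18.3 CPM with DMSO, 25.97, 22.3, 19.3 and 38.5 with 3 µM, 32.1, 30.8, 36.6 and 48.95 with 5 µM, and 50.7, 47.4, 56.1 and 65.0 with 10 µM. All treated libraries were above all DMSO libraries. The log2 fold changes were 0.65, 1.14 and 1.70, with adjusted p of 0.0306, 0.000146 and 9.67e-07. Slc5a3, a sodium and myo-inositol transporter gene on the same strand, overlaps it: 19.9% of the exon bases of Mrps6 lie within exons of other genes. Slc5a3 moved from 15.2 to 24.8, 44.1 and 64.1 CPM, a log2 fold change of 0.71, 1.53 and 2.07, so reads of the pair may have been split between them.

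**Figure D3:**
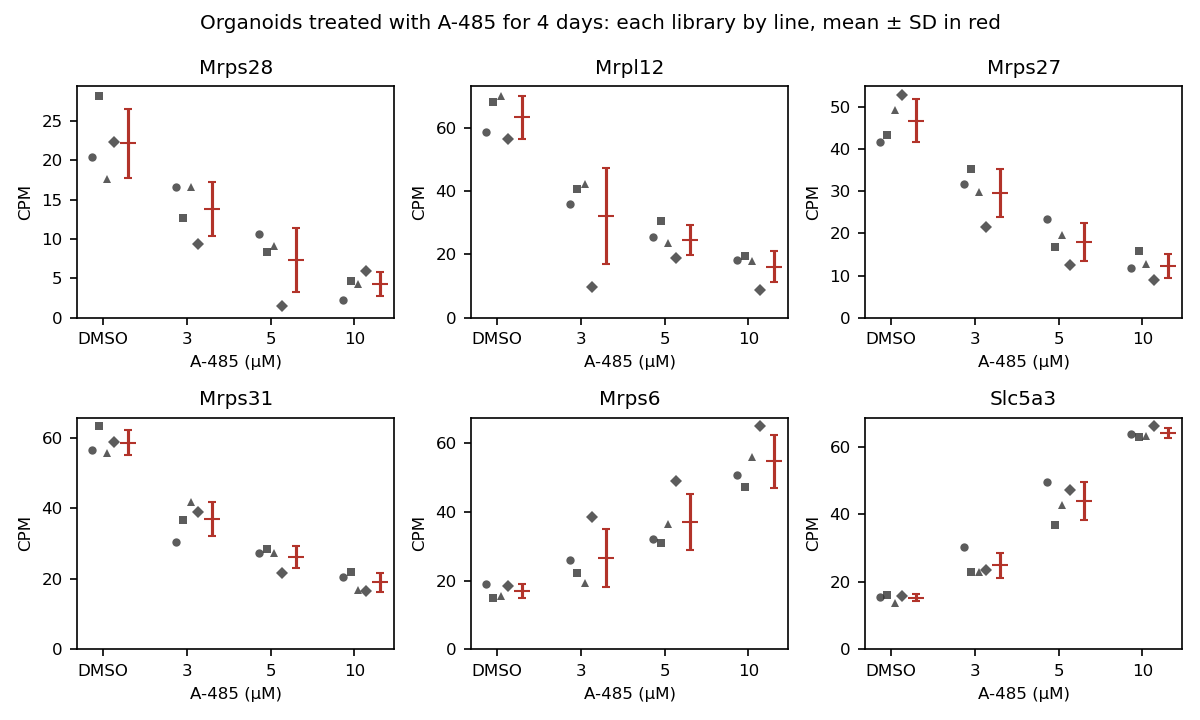
CPM of Mrps28, Mrpl12, Mrps27, Mrps31, Mrps6 and the overlapping Slc5a3 with DMSO and 3, 5 and 10 µM A-485, each point a library (circles line 1, squares line 2, triangles line 3, diamonds line 4) and red bars the mean ± SD of 4. The first 4 genes fall with dose, Mrps31 to between 16.4 and 22.0, and Mrps6 and Slc5a3 rise.

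Without the wild-type line, 8 members were called at 3 µM, all lower, and 43 and 44 at 5 and 10 µM. Without DMSO line 2, the count at 3 µM was 12. Scaled to library totals, 1 was higher and 13, 45 and 43 lower, with a median of all genes of 0.12 at 3 µM. The shares of all genes called under these alternatives are not given here, so the shifts cannot be called particular to the members. Of the pathway lists, cytosolic ribosomal protein genes were lower for 74 of 75 at 10 µM (median -1.53), oxidative phosphorylation genes for 64 of 88 with 2 higher, and mitochondrial aminoacyl-tRNA synthetases for 11 of 17. Of the 11 genes of mitochondrial transcription and its regulators 9 were lower, with -1.32 for Tfam and -1.05 for the mitochondrial RNA polymerase gene Polrmt. Of the 24 assembly factors 9 were lower and 1 higher. Lrpprc, which stabilises mitochondrial messages, fell by 2.17 and the elongation factor gene Tufm by 1.44. Over the same doses the crypt markers went from 8048 to 1900, 379 and 194 CPM (median sums) and the enterocyte markers from 10210 to 3931, 3033 and 342. Their part in the members' fall was not tested.

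Deletion of Eif4g2 was compared with control in 7 settings that share no library, although crypts and villi share animals. The members' median lay between -0.21 (spheroids) and 0.11 (Rosa26 villi), with members called in both directions except in spheroids. In the second organoid set it was -0.16, against -0.01 for all genes, and stayed between -0.17 and -0.14 when single libraries were left out. In Rosa26 crypts 2 rose and 10 fell (20.2% of all genes called, 8.63% higher and 11.6% lower), and in Rosa26 villi 11 rose and 11 fell (33.2%, 15% and 18.2%). In Vil1 crypts 12 rose and 2 fell (29.3%, 11.6% and 17.7%), and in Vil1 villi 10 rose and 12 fell (42.5%, 20.9% and 21.6%). In the first organoid set 3 rose and 10 fell (35.4%, 18.2% and 17.2%), in the second 4 rose and 33 fell against flox/+ (46.8%, 22.6% and 24.3%), and in flox/flox spheroids 0 rose and 4 fell (19.1%, 9.01% and 10%). Without a block, the share of members called was below that of all genes in 6 of the 7, and it was 48.1% in the second organoid set. With the line as a block it was 29.9% in the first organoid set, against 43.3% of all genes, and 33.8% in spheroids, against 34.6%.

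**Figure D4:**
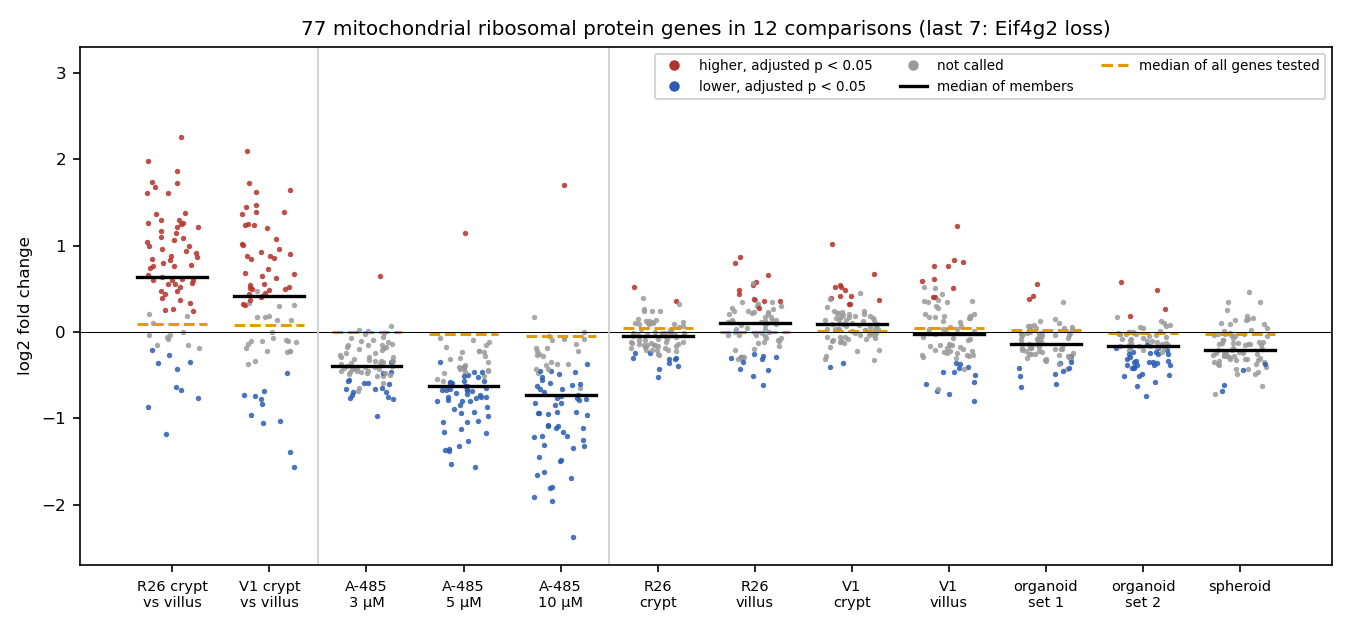
Log2 fold change of each of 77 genes (points) in 12 comparisons: crypt over villus in controls, A-485 over DMSO, and deleted over control Eif4g2. Black lines are members' medians and dashed lines medians of all tested genes. Crypts lie mostly above 0 and A-485 below, while after Eif4g2 loss the members' medians lie between -0.21 and 0.11.

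A few members were called repeatedly. Over the 7 comparisons 35 members were called lower at least once and never higher, 19 higher and never lower, 6 in both directions and 17 in none. Of the 12043 genes tested in all 7, 35.9% were lower only, 37% higher only, 9.94% both and 17.1% none, against 45.5%, 24.7%, 7.79% and 22.1% of members. Calls in 4 or more comparisons were not commoner among members, with 10.4% lower and 3.9% higher, against 12.1% and 11.6% of all genes. Lower in 4 or more were Mrps31 (7), Mrpl14, Mrpl58 and Mrps9 (5 each), and Mrpl27, Mrpl28, Mrps15 and Mrps34 (4 each). Higher in 4 or more were Mrpl3 (6), Mrpl20 and Mrps6 (4 each), of which Mrpl20 was also lower once. With the line block in the first organoid and spheroid sets, Mrps31 was still lower in 7, Mrpl3 was higher in 7, and Mrpl23 and Mrpl24 were lower in 4 as well. Of all genes, 1.69% were lower in 7 and 3.53% higher in 6 or more without the block. The signs of these calls were the same with library totals.

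Mrpl3 (chr9:105053239-105079888), a conserved large subunit protein, was higher throughout. In Rosa26 crypts it was at 44.8, 48.9, 46.9, 50.4 and 49.9 CPM in controls and at 50.7, 63.6, 53.6 and 69.4 after deletion, a log2 fold change of 0.35 (SE 0.09, adjusted p = 0.023). In the villi it was at 22.5, 18.01, 19.1, 22.3 and 18.7 CPM in controls and at 35.95, 45.3, 39.4, 35.3 and 34.0 after deletion, a change of 0.87 (SE 0.10, adjusted p = 0.000166). Deleted and control libraries did not overlap in either fraction. In Vil1 crypts the controls read 46.1, 39.0, 42.1 and 44.7 CPM and the deleted libraries 58.3, 55.9 and 57.9, and the log2 fold change was 0.42 (adjusted p = 0.00491). In Vil1 villi the controls read 23.8, 16.1, 16.9 and 21.1 CPM and the 6 deleted libraries 28.1 to 47.0 with a median of 32.5, and the change was 0.81 (adjusted p = 0.00161).

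Mrpl3 was higher in organoids too. In the first organoid set it was at 53.3, 51.3 and 54.4 CPM with DMSO and at 65.0, 66.5 and 80.4 with 4-OHT, a log2 fold change of 0.42 (adjusted p = 0.0171). In the second it was at 63.4, 62.4, 68.1 and 61.7 CPM in flox/+ lines and 91.0, 90.03, 92.2 and 83.8 in flox/flox lines, a change of 0.48 (adjusted p = 6.24e-06). Again no deleted library reached down to a control library. In flox/flox spheroids it was at 51.3 to 85.5 CPM with DMSO (median 64.4) and 70.7 to 128 with 4-OHT (median 85.7), and the groups overlapped. The change of 0.47 was not called (adjusted p = 0.0592), but all 6 lines were higher with 4-OHT, and with the line as a block it was 0.46 (adjusted p = 0.00258).

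Mrps31 (chr8:22411361-22429665) was lower in all 7. In Rosa26 crypts it was at 35.8, 42.4, 36.2, 41.0 and 45.2 CPM in controls and 30.3, 30.8, 27.4 and 37.2 after deletion, and in villi at 35.7, 31.0, 24.5, 29.7 and 33.6 against 27.2, 26.2, 26.1, 24.1 and 26.7. The groups overlapped in both fractions, and the log2 fold changes of -0.30 in crypts (adjusted p = 0.0483) and -0.30 in villi (adjusted p = 0.0401) were close to the threshold. In Vil1 crypts it was at 45.7, 38.1, 54.3 and 48.7 CPM against 31.5, 35.9 and 38.2, a change of -0.41 (adjusted p = 0.0443) with 1 deleted library just above the lowest control. In Vil1 villi controls read 43.0, 43.4, 37.7 and 47.4 CPM, and the deleted libraries 22.4 to 33.3 with a median of 30.2, a change of -0.57 (adjusted p = 0.00219) without overlap. In the first organoid set it was at 62.4, 62.2 and 58.7 CPM with DMSO and 41.2, 44.8 and 48.4 with 4-OHT, a change of -0.45 (adjusted p = 0.00735). In the second it was at 72.9, 73.7, 74.2 and 72.4 CPM in flox/+ and 68.2, 65.0, 65.2 and 64.6 in flox/flox lines, a change of -0.16 (adjusted p = 0.0193). In spheroids it went from 48.2 to 77.6 CPM (median 60.7) to 37.6 to 52.1 (median 44.8), lower in all 6 lines, a change of -0.44 (adjusted p = 0.032).

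**Figure D5:**
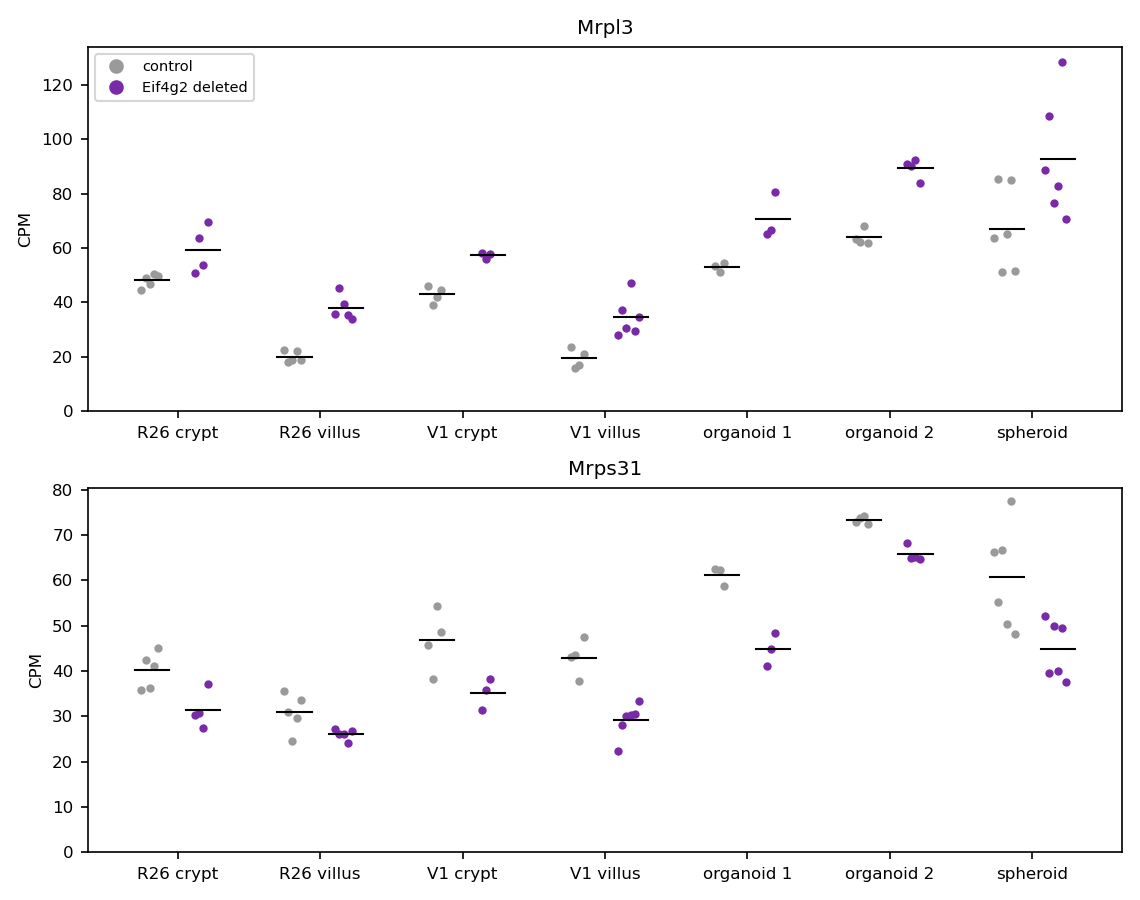
CPM of Mrpl3 (upper) and Mrps31 (lower) in each control (grey) and Eif4g2-deleted (purple) library of 7 settings, with group means as lines. Mrpl3 is higher and Mrps31 lower after deletion in each setting, with means of 38.0 against 20.1 CPM for Mrpl3 in Rosa26 villi.

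Among the others that fell repeatedly, Mrpl58 is a peptidyl-tRNA hydrolase built into the ribosome that frees stalled chains. It was at 31.7, 32.4 and 29.9 CPM with DMSO and 20.6, 21.7 and 24.6 with 4-OHT in the first organoid set, a log2 fold change of -0.49 (adjusted p = 0.00874). It was called at -0.30 in Rosa26 crypts, -0.35 in Rosa26 villi, -0.38 in the second organoid set and -0.69 in spheroids, but not in Vil1 crypts (-0.06, adjusted p = 0.77) or Vil1 villi (-0.43, adjusted p = 0.0736). Mrpl14 fell by 0.32, 0.31 and 0.69 in Rosa26 crypts and villi and Vil1 villi, and by 0.60 and 0.58 in the organoid sets. Mrps34 fell by 0.64 and 0.62 in the organoid sets and by 0.32 and 0.43 in Rosa26 crypts and villi. Exons of Mapk8ip3 and Nme3 overlap it, on 37% of its exon bases on the same strand and 63.4% on the opposite strand. Nme3 was at 0 CPM in every library of the first organoid set. Reads may have been shared between these genes, so the level and changes of Mrps34 may be affected. Mrps9, a conserved small subunit protein, fell in both crypt sets (-0.43 and -0.36) and all cultures but was at 0.09 and 0.17 in villi (adjusted p = 0.605 and 0.274).

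Of those that rose, Mrpl20, a conserved large subunit protein, was called higher in the 4 tissue comparisons. In Rosa26 crypts it was at 24.9, 24.3, 22.9, 27.4 and 27.1 CPM in controls and 34.7, 38.3, 30.9 and 35.9 after deletion, with no overlap. Its log2 fold change was 0.52 and 0.66 in Rosa26 crypts and villi and 0.67 and 0.40 in Vil1 crypts and villi. In the second organoid set it fell by 0.25 (adjusted p = 0.0241), and in the first and in spheroids it was at 0.05 and 0.09 without a call. A test of the difference between tissue and cultures was not run. Mrps6 rose by 1.02 in Vil1 crypts, 1.24 in Vil1 villi, and 0.56 and 0.58 in the organoid sets. The overlapping Slc5a3 rose by 0.90, 2.04, 1.93 and 1.55 in the same comparisons.

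In Rosa26 crypts the largest fall was that of Mrpl9, a conserved large subunit protein, at -0.52 (SE 0.08, adjusted p = 0.00325), followed by Mrpl28 (-0.39) and Mrps12 (-0.36). The count in this fraction moved with the processing. It was 6, with 3 in each direction, when the presence of Ddx3y counts was a covariate. With library totals it was 4, and it ranged from 2 to 16 when single libraries were left out. It was 2 without flox/flox replicate 4, 6 without flox/flox replicate 1, and 7, 4, 4, 7 and 5 without flox/+ replicates 1 to 5. In Rosa26 villi the Ddx3y covariate gave 14 called, 10 higher and 4 lower, and library totals gave the same counts. Shares of all genes called in these alternative fits are not given here, so the shifts cannot be called particular to the members. Mitochondrially encoded transcripts took 18.9% ± 5.03 (SD, n = 4) of counts in deleted Rosa26 crypts against 8.55% ± 2.49 (n = 5) in controls, and 35.7% ± 4.98 (n = 3) against 23.3% ± 6.07 (n = 4) with Vil1-CreER. In villi the means were 5.03% ± 1.93 (n = 5) against 9.75% ± 8.73 (n = 5) with Rosa26-CreER and 12.5% ± 5.99 (n = 6) against 17.1% ± 7.15 (n = 4) with Vil1-CreER. These shares were not tested.

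In villi Mrps27 rose with both drivers, by 0.80 (SE 0.17, adjusted p = 0.00427) and 0.76 (SE 0.19, adjusted p = 0.00669). It was at 12.1, 10.8, 11.6, 11.1 and 11.6 CPM in deleted Rosa26 villi, above all 5 controls given above but below all crypt libraries. Mrpl27 fell in both, by 0.44 and 0.80, and Mrps15 by 0.51 and 0.61. Mrps36 fell in Vil1 villi by 0.72 (adjusted p = 0.000915), with 31.9 to 45.1 CPM in controls and 19.0 to 28.2 after deletion, and was at -0.20 in Rosa26 villi (adjusted p = 0.124). Mrpl37, a mitochondria-specific large subunit protein, rose by 0.83 in Vil1 villi and 0.38 in Rosa26 villi. In Vil1 crypts the 12 rises, led by Mrps6, Mrpl20 and the conserved large subunit protein Mrpl36 (0.55, adjusted p = 0.0133), depend on scaling. Library totals gave 2 higher and 3 lower there, with a median of -0.13 over all genes, and 14 higher and 3 lower in Vil1 villi, with 0.22 over all genes. Without Vil1 villus control 4 the villus count was 13. Without flox/flox crypt replicate 1 or 3 or control crypt 1 the crypt count was 5, 9 or 8. Shares of all genes called with library totals or with libraries left out are not given here.

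The change with genotype was tested between villi and crypts as an interaction. With Rosa26-CreER 13 members had a more positive change in villi and 0 a more negative one (11.5% of all genes called, 6.68% higher and 4.86% lower), and with Vil1-CreER 2 and 5 (15.5%, 9.38% and 6.14%). The largest with Rosa26-CreER were Mrps2 (0.82, adjusted p = 0.0181), Mrps5 (0.79, adjusted p = 0.00247), both conserved small subunit proteins, and Mrps27 (0.75, adjusted p = 0.0471). Mrpl37 and Mrps9 were called with both drivers, at 0.63 and 0.87 for Mrpl37 and 0.62 and 0.55 for Mrps9. With Vil1-CreER Mrps36 (-0.86), Mrpl41 (-0.76) and Mrps16 (-0.72) had a more negative change in villi. Library totals gave 4 positive and 0 negative calls with Vil1-CreER, where the median of all genes moved to 0.40, so the negative calls there were not made on that scale. The Rosa26 count ranged from 3 to 24 when single libraries were left out. For library totals and left-out libraries the shares of all genes called are not given here. Crypts and villi share animals, and a fit with the animal as a block used the 9 Rosa26 and 7 Vil1 animals sampled in both fractions (18 and 14 libraries). It called 2 members with Rosa26-CreER (4.67% of all genes called), Mrps5 at 0.77 (adjusted p = 0.0193) and Mrpl34 at 0.48 (adjusted p = 0.0415), and no longer Mrps2, Mrps27, Mrpl37 or Mrps9 (adjusted p = 0.0694, 0.0705, 0.0706 and 0.099). It called 4 with Vil1-CreER (12.8% of all called), Mrpl37 at 1.01, Mrps9 at 0.63, Mrps36 at -1.04 and Mrps15 at -0.60, with adjusted p of 0.0182, 0.0251, 0.0201 and 0.0492.

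In the second organoid set the same flox/flox libraries were compared with both controls. Against CreER-only lines 4 members rose and 22 fell (45.3% of all genes called, 21.9% higher and 23.5% lower). Between flox/+ and CreER-only lines edgeR and DESeq2 each called 0 members (0.113% of all genes called, 0.0492% higher and 0.0633% lower), and 9 had an unadjusted p under 0.05. Mrpl52, a mitochondria-specific large subunit protein, fell most, by 0.75 (SE 0.11, adjusted p = 6.52e-05) against flox/+ and 0.55 (SE 0.11, adjusted p = 0.000861) against CreER-only. Mrpl4, a conserved large subunit protein, rose by 0.26 and 0.24. In the first organoid set the counts rose from 13 to 23 with the line as a block, 4 higher and 19 lower, where 43.3% of all genes were called, 22.2% higher and 21.1% lower. Without 4-OHT line 1 there were 6 called, and without DMSO line 1, 2 or 3 there were 7, 6 and 6. Without 4-OHT line 3, whose summed member level was 3194 CPM, the highest of the 3, there were 39. For the fits with a library left out the shares of all genes called are not given here. Crypt markers were at 617 against 2082 CPM (median sums) in this set, and at 2775 against 8755 in the second.

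In spheroids Mrpl14 differed widely between lines given the same treatment. Mrpl14 was at 15.9 to 55.5 CPM over the 5 flox/+ DMSO libraries and at 12.4 to 40.4 over the 6 flox/flox DMSO libraries. Treatment of flox/+ lines with 4-OHT gave 0 calls by edgeR and by DESeq2 for members (0% of all genes called, 0 members at an unadjusted p under 0.05). DMSO-treated flox/flox against flox/+ gave 0 by both tools as well (0% of all called, 2 members at an unadjusted p under 0.05). With 4-OHT, flox/flox against flox/+ gave 1 higher and 2 lower (10.5% of all called, 4.36% higher and 6.13% lower), and the difference in the 4-OHT response between genotypes, in a fit that ignores the line, gave 0 by both tools (1.62% of all called, 0.645% higher and 0.971% lower, 0 members at an unadjusted p under 0.05). With the line as a block the flox/flox response to 4-OHT had 26 called instead of 4, 25 lower and only Mrpl3 higher, where 34.6% of all genes were called, 17.6% higher and 17.1% lower. The difference between genotypes then had 10 called (18.3% of all), with Mrpl3 higher at 0.48 (adjusted p = 0.0106) and 9 lower, among them Mrpl14 at -0.78 (adjusted p = 0.0163), Mrpl58 at -0.58 (adjusted p = 0.0253) and Mrps31 at -0.33 (adjusted p = 0.0419). In the flox/flox lines Mrpl14 then changed by -0.75 (adjusted p = 0.00527), Mrps34 by -0.71, Mrpl58 by -0.70 and Mrpl47, a conserved protein near the exit tunnel, by -0.66. Mrpl14 was lower with 4-OHT in each line, at 40.4, 33.9, 38.6, 37.3, 27.8 and 12.4 CPM with DMSO for lines 1 to 6 and 26.1, 22.4, 22.3, 15.0, 23.3 and 6.87 with 4-OHT. In the fit with no block the count was 1 without DMSO line 1 or 3 or 4-OHT line 4. It was 2 without DMSO line 5 or 4-OHT line 6, and 9 without DMSO line 6 or 4-OHT line 5. Shares of all genes called with these libraries left out are not given here.

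Spheroids and second-set organoids with 4-OHT were set side by side as fetal and adult epithelium, and age and kind of culture cannot be told apart. In flox/+ cultures 7 members were higher in spheroids and 17 lower (47.9% of all genes called, 25.1% higher and 22.8% lower), and in flox/flox cultures 5 and 1 (24.6%, 15.2% and 9.45%). Mrpl45, a large subunit protein that docks the ribosome to the inner membrane, was higher in both, by 0.67 and 0.63. Mrpl24, a conserved large subunit protein, was higher in both as well, by 0.44 and 0.51. Mrps31 was lower in both, by 0.33 and 0.43. Mrpl18, a conserved large subunit protein, was lower by 0.66 in flox/+ cultures and not called in flox/flox ones (-0.45, adjusted p = 0.198), and the difference between genotypes was not tested. Library totals gave 4 higher and 26 lower in flox/+ cultures, with a median of -0.13 over all genes. Without spheroid 2 the flox/flox count was 3, and without spheroid 6 it was 15. Leaving out organoid 1, 2, 3 or 4 gave 2, 3, 3 and 3. Shares of all genes called with library totals or with libraries left out are not given here.

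The members varied together across libraries in most sets, which is given as a description since libraries share depth and scaling. All groups of a set were pooled, so the group differences reported above enter these correlations. No value for other genes is given. The median correlation of a member with the mean of the other members, on log2 CPM, was 0.874 over the 19 Rosa26 tissue libraries, 0.748 over the 17 Vil1 tissue libraries, 0.799 over the 6 of the first organoid set and 0.671 over the 12 of the second. It was 0.77 over the 16 A-485 libraries and 0.753 over the 22 spheroid libraries. The number of members below 0 was 15 in each tissue set, 7 and 9 in the organoid sets, 1 in the A-485 set and 0 in spheroids. Of the pathway lists, oxidative phosphorylation genes were called lower after Eif4g2 loss for 40 of 88 in Vil1 villi, 41 of 89 in the first organoid set and 49 of 88 in the second, with 3, 1 and 4 higher. The list had 3 higher and 1 lower in Rosa26 crypts, 11 and 9 in Rosa26 villi, 3 and 5 in Vil1 crypts and 0 and 5 in spheroids. Mitochondrial aminoacyl-tRNA synthetases were higher for 9 of 17 in Vil1 villi and 5 of 17 in Rosa26 villi, with 0 lower. They had 0 higher and 2 lower in Rosa26 crypts, 2 and 2 in Vil1 crypts and in the first organoid set, 4 and 1 in the second and 1 and 0 in spheroids. Tufm, the mitochondrial elongation factor, rose by 0.74 in Rosa26 villi, 0.75 in Vil1 villi and 0.24 in the second organoid set. Of the 5 ribosomal subunits without an Mrp symbol, which include Dap3 and Ptcd3, 0 were called in 5 of the 7 comparisons, Ptcd3 rose in Vil1 villi (0.76) and the second organoid set (0.22), and Chchd1 fell by 0.42 in the latter.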

How the data were processed

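The authors deposited 4 tables of raw read counts per gene for poly(A)-selected, directional (dUTP) mouse RNA-seq libraries, and 92 libraries were used here. Per the submitters' processing notes, HISAT2 2.0.5 and GRCm38 (mm10) were used. The counter, annotation and strand setting are not given in the sources used here, so reads of genes that overlap on either strand may be shared. Besides the overlaps given above, other genes cover exon bases of named members on the opposite strand. The shares were 36% for Mrpl19, 33.4% for Mrpl43, 26.3% for Mrpl24, and 24.2% for each of Mrps27 and Mrpl47. Libraries held 8652040 to 37611126 counts; precision rests on the replicates. Groups follow the labels. Counts were tested with edgeR 4.0.16 (R 4.3.3) by the quasi-likelihood F-test after filterByExpr and TMM scaling, with Benjamini-Hochberg adjustment over all tested genes and a threshold of 0.05. The scripts were tested on simulated data. Members and lists were chosen with earlier results of these data known, and 2 lists (genes overlapping a member; the 2-oxoglutarate dehydrogenase complex) after values were seen. Named members are the 3 largest called rises and falls per comparison without overlap between groups, the 3 highest and lowest per kilobase, a fixed list, and members called in 4 or more deletion comparisons, the last added after values were seen. Alternatives were library totals, no filter, DESeq2 1.42.0, a replicate block, leaving out each library and, chosen after seeing the data, a covariate for the animal number series, one for Ddx3y, leaving out the wild-type line, and a block for the animal or line in the interactions. Numbers pair libraries by line in the first organoid, A-485 and spheroid sets and by animal between crypts and villi; deviations of same-numbered libraries correlated at 0.318 to 0.501, 0.0556 to 0.321, 0.385 to 0.857 and -0.00247 to 0.296.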

Additional observations from a re-analysis of the deposited data

Results flagged for a closer look

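A pair of single libraries lay far from the rest of their group. The 86 groups examined were of the summed member level or of single named members, and chance alone flags about 1 in 20. Mrpl12 was at 8.86 CPM in line 4 at 10 µM A-485, against 18.02 to 19.3 in the other lines. Mrps31 was at 68.2 CPM in flox/flox replicate 1 of the second organoid set, against 64.6 to 65.2 in the others.

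The effect of genotype differed between villi and crypts by the interaction term of edgeR for 13 members with Rosa26-CreER, all more positive in villi. On the log2 scale the differences were 0.36 for Mrpl10, 0.50 for Mrpl13, 0.62 for Mrpl3, 0.47 for Mrpl34, 0.63 for Mrpl37 and 0.52 for Mrpl38 of the large subunit. In the small subunit they were 0.82 for Mrps2, 0.79 for Mrps5, 0.62 for Mrps9, 0.49 for Mrps17, 0.71 for Mrps22, 0.75 for Mrps27 and 0.72 for Mrps28. With Vil1-CreER the differences were 0.87 for Mrpl37 and 0.55 for Mrps9, and -0.76 for Mrpl41, -0.57 for Mrpl43, -0.55 for Mrps15, -0.72 for Mrps16 and -0.86 for Mrps36. Whether the interaction differed between the drivers was not tested. With the animal as a block, Mrps5 and Mrpl34 were called with Rosa26-CreER, and Mrpl37, Mrps9, Mrps36 and Mrps15 with Vil1-CreER.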

How the results depend on the processing

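Of 1039 alternative values for 74 pairs of a named member and a comparison, 967 kept direction and side of the threshold, 70 kept direction but were no longer called and 2 reversed, both with library totals in Rosa26 crypts against villi (Mrpl27 0.196, Mrpl43 0.0899). The shares of all genes called under the alternative settings are not given here. Counts of called members moved by over 1.5 times as follows, and the causes were not tested. With library totals they were 4 in Rosa26 crypts (12 in the main analysis), 14 in Rosa26 villi (22), 5 in Vil1 crypts (14), 1 in 4-OHT spheroids between genotypes (3), and 6 and 4 for the Rosa26 and Vil1 interactions (13 and 7). Without a filter they were 4, 13, 0 in flox/flox spheroids (4), 0 in 4-OHT spheroids, and 7 and 3 for the interactions. The Ddx3y covariate gave 6 in Rosa26 crypts and 14 in villi. DESeq2 gave 23 in the first organoids (13), 30 at 3 µM A-485 (19) and 9 in flox/flox spheroids. Without the wild-type line 8 were called at 3 µM. The replicate block gave 23 in the first organoids and 26 in flox/flox spheroids, where lines are paired. In Rosa26 crypts and 4-OHT spheroids between genotypes, where libraries share only a number (correlations 0.0366 to 0.599 and -0.357 to 0.489), it gave 4 and 0. A block for the animal or line, chosen after seeing the data, gave 2 and 4 for the Rosa26 and Vil1 interactions and 10 for that of spheroids (0); no other count moved past 1.5 times under the block.

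With single libraries left out, counts ranged from 2 to 16 in Rosa26 crypts, 16 to 24 in Rosa26 villi, 5 to 15 in Vil1 crypts, 13 to 23 in Vil1 villi, 6 to 39 in the first organoids, 12 to 19, 43 to 54 and 45 to 52 for A-485, 31 to 37 and 22 to 30 in the second organoids, 1 to 9 in flox/flox spheroids, 0 to 4 in 4-OHT spheroids between genotypes, 64 to 67 and 47 to 55 for crypt against villus, 18 to 24 and 2 to 15 for spheroid against organoid, and 3 to 24 and 3 to 8 for the interactions. The 4-OHT spheroid count was 1 without flox/flox line 1 or 2 or flox/+ line 2 or 3, and 0 without flox/+ line 1. The Vil1 interaction was 3 and 4 without flox/flox crypts 1 and 2. The lowest depth, 8652040 counts, was at 10 µM A-485.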
